A study of Mus musculus with 48 samples.

Results

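The 12 libraries described here compare the loss of 1 copy of Rpl5 with the loss of 1 copy of Rpl11 in the mouse cell line Ba/F3, without wild type as the reference. They were taken from the 48 libraries of the series by the genotype and clone named in the labels. Each genotype was represented by 3 CRISPR-Cas9 clones: 80, 76 and 68 for Rpl5+/- and 406, 414 and 22 for Rpl11+/-. Every clone gave 1 library of poly(A) RNA and 1 library of ribosome footprints, made from the same lysate. Ba/F3 cells depend on interleukin-3 (IL-3). All clones were grown in 10% fetal calf serum with IL-3 at 1 ng/ml and received the elongation inhibitor cycloheximide at 0.1 mg/ml for 1 min before harvest. WT clones 3, 2 and 1, kept and harvested in the same way, served only to show where a level lay. All genes were examined: 11898 of the 55487 in the table had enough counts for the RNA test and 14068 for the footprint test. Each genotype is known here only from its 3 clones, so p-values measure the spread between clones of a single parental line.

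Rpl5 and Rpl11 are proteins of the large ribosomal subunit that join the 5S ribosomal RNA before it enters the growing subunit. Outside the ribosome this 5S particle can bind Mdm2, the ubiquitin ligase that marks p53 for destruction, and so links faulty ribosome assembly to p53. Loss of 1 copy of either gene occurs in Diamond-Blackfan anaemia, and RPL5 is also lost in blood cancers.

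The RNA libraries held 14354095 to 28133716 estimated counts and the footprint libraries 36144672 to 68866154. Levels below are CPM, the usual depth-scaled counts, on TMM-scaled library sizes, and a change is the log2 ratio of Rpl5+/- over Rpl11+/-. For the median gene the 95% interval reached 0.241 to either side of the log2 change in RNA, 0.559 in footprints and 0.643 in translational efficiency. Of 15 B-lineage markers, 2 passed the count filter (Ptprc and Cd79b). In RNA 7 of the 15, Ebf1, Igll1 and Rag2 among them, were at 0 in all 9 clones, although Ba/F3 is described as a pro-B line. Under 1 CPM in all 9 were 12 of the 15, while Cd79a ranged from 0.0361 to 9.96 CPM. The summed level of the 15 was 247 to 275 CPM in Rpl5+/-, 237 to 286 CPM in Rpl11+/- and 241 to 272 CPM in WT. The summed level of 14 neutrophil and monocyte markers was 274 to 516 CPM in Rpl5+/-, 191 to 298 CPM in Rpl11+/- and 138 to 245 CPM in WT. Of the 10 tested, 9 were on the side higher in Rpl5+/- and none was called.

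In RNA the Rpl11+/- clones were less alike than the Rpl5+/- clones. The median gene had a standard deviation between clones of 0.0839 log2 CPM in Rpl5+/- RNA and of 0.142 in Rpl11+/- RNA. Over 8545 genes with a mean of at least 10 CPM, the median absolute log2 difference between Rpl5+/- clones was 0.0664 to 0.0806. Among Rpl11+/- clones it was 0.12 between 406 and 414, 0.129 between 406 and 22, and 0.166 between 414 and 22. Clone 414 lay closer to each Rpl5+/- clone (0.0943 to 0.0971) than to its own genotype's other clones in RNA. In footprints the order differed: clones 406 and 414 (0.158) were closer than any pair of Rpl5+/- clones (0.178 to 0.248), and clone 22 was 0.25 and 0.296 from them. Clone 22 carried a lower level of many chromosome 13 genes and is therefore also shown apart. Its median difference from the Rpl5+/- clones was 0.154 to 0.171 in RNA and 0.248 to 0.339 in footprints.

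The edited genes were 2 of the 3 called in RNA. Their start regions, as RefSeq gives them on build GRCm38.p6, are printed from 100 bases before to 30 bases after the start in the RefSeq promoter table (the Rpl5 gene itself is listed from 107900508), 5′ to 3′ on the gene's strand. Capitals mark the longest run of pyrimidines from 40 bases before to 30 bases after the start, since ribosomal protein transcripts often begin with such a tract. Rpl5 (chr5:107900428-107900557, plus strand) has a run of 9 and Rpl11 (chr4:136053364-136053493, minus strand) a run of 17. The Rpl5 run begins 20 bases before that start, at the base from which the Rpl5 gene itself is listed. The Rpl11 run begins at base 14 from it and reaches the last base searched, so its full length is not known.
Rpl5: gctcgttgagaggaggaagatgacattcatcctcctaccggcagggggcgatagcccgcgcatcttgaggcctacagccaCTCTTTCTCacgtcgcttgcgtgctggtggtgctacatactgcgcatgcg
Rpl11: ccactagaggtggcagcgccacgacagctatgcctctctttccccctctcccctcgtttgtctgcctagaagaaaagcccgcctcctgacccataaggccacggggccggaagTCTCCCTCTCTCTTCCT

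Rpl5 RNA stood at 1568, 1559 and 1613 CPM in Rpl5+/- clones 80, 76 and 68, and at 2754, 2878 and 2773 CPM in Rpl11+/- clones 406, 414 and 22. The groups were far apart, and the WT clones (2363, 2374 and 2315 CPM) lay between them. Rpl5 was thus at 67.2% of its WT mean in Rpl5+/- and at 119% in Rpl11+/-. The log2 change was -0.83 (SE 0.0458, edgeR quasi-likelihood test, Benjamini-Hochberg adjusted p = 0.000574, n = 3 clones against 3).

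Rpl11 RNA mirrored this. It measured 2008, 1898 and 2095 CPM in Rpl5+/- clones and 1169, 1024 and 1080 CPM in Rpl11+/- clones, again with the WT clones (1712, 1696 and 1689 CPM) in between. Rpl11 was at 64.2% of its WT mean where it was edited and at 118% where Rpl5 was edited. The log2 change was 0.87 (SE 0.0654, edgeR adjusted p = 0.0034). Each edited transcript was therefore lower by nearly the same factor, 1.77 for Rpl5 and 1.83 for Rpl11, when set against the other genotype.

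The typical ribosomal protein gene also lay above its WT level, though single genes went down to 73.1% of WT in Rpl11+/- and 95.4% in Rpl5+/-. Over 46 large-subunit protein genes besides Rpl5 and Rpl11 the median level was 121% of WT in Rpl5+/- RNA and 125% in Rpl11+/- RNA, and over 34 small-subunit genes it was 122% and 126%. These are shares of CPM, so they are relative to all other RNA.

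Footprints showed the same order for both edited genes but did not pass the test. Rpl5 footprints were 301, 325 and 273 CPM in Rpl5+/- clones against 681, 518 and 577 CPM in Rpl11+/- clones (log2 change -0.98, SE 0.144, edgeR adjusted p = 0.383). Rpl11 footprints were 1127, 1419 and 1019 CPM against 859, 691 and 841 CPM (log2 change 0.58, SE 0.163, adjusted p = 0.963). In neither case did the clones of the genotypes overlap. WT footprints overlapped Rpl11+/- for Rpl5 (501, 553 and 571 CPM) and Rpl5+/- for Rpl11 (1064, 1214 and 1047 CPM). The test of translational efficiency, the footprint change beyond the RNA change, gave -0.16 for Rpl5 (95% interval -0.49 to 0.17) and -0.30 for Rpl11 (-0.70 to 0.10), both at an edgeR adjusted p of 1.

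**Figure D1:**
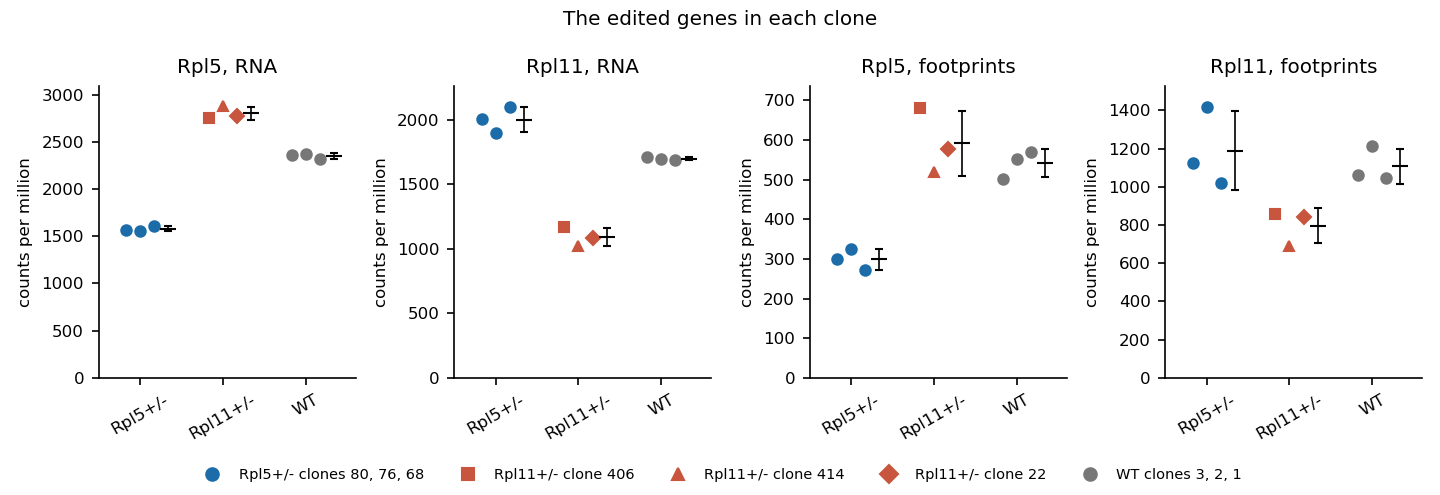
RNA and footprint levels (CPM, axes from 0) of Rpl5 and Rpl11 in every Rpl5+/-, Rpl11+/- and WT clone; bars give the mean and SD of 3 clones. In RNA each edited gene is lowest in its own genotype and the partner genotype lies above WT.

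Gm15500, an annotated pseudogene on chromosome 7, followed Rpl5. The gene tables do not name its parent gene. Its RNA was 103, 105 and 106 CPM in Rpl5+/- and 182, 186 and 125 CPM in Rpl11+/-, with clone 22 the lowest of the Rpl11+/- clones. The change was -0.66 with all clones (edgeR adjusted p = 0.261) and -0.82 without clone 22 (adjusted p = 0.00158). In footprints Gm15500 was higher than Rpl5 itself, at 1355, 1060 and 1056 CPM in Rpl5+/- and 2074, 2107 and 1405 CPM in Rpl11+/-. Gm15500 and Rpl5 together came to 1456 ± 175 footprint CPM in Rpl5+/- and 2454 ± 415 in Rpl11+/- (SD, n = 3 clones each). Gm15500 held 70.9% to 81.8% of that sum. Whether the counting placed Rpl5 reads on Gm15500 was not tested.

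Beyond the edited genes, few transcripts separated the genotypes past the threshold. At an adjusted p under 0.05, edgeR called 1 gene higher in Rpl5+/- (0.00840% of those tested) and 2 genes lower (0.0168%). At an unadjusted p under 0.05 there were 699 higher (5.87%) and 777 lower (6.53%). The clones of the genotypes did not overlap for 1164 genes higher (9.78%) and 1109 lower (9.32%) in Rpl5+/-. The number of calls turned on the Rpl11+/- clones. Without clone 22 there were 5 higher (0.0420%) and 6 lower (0.0504%), and without clone 414 there were 182 higher (1.53%) and 206 lower (1.73%). Clone 414 is the Rpl11+/- clone nearest the Rpl5+/- clones in RNA. Calls made without it are given below as a description of the clones, not as support for a difference between the genotypes.

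**Figure D2:**
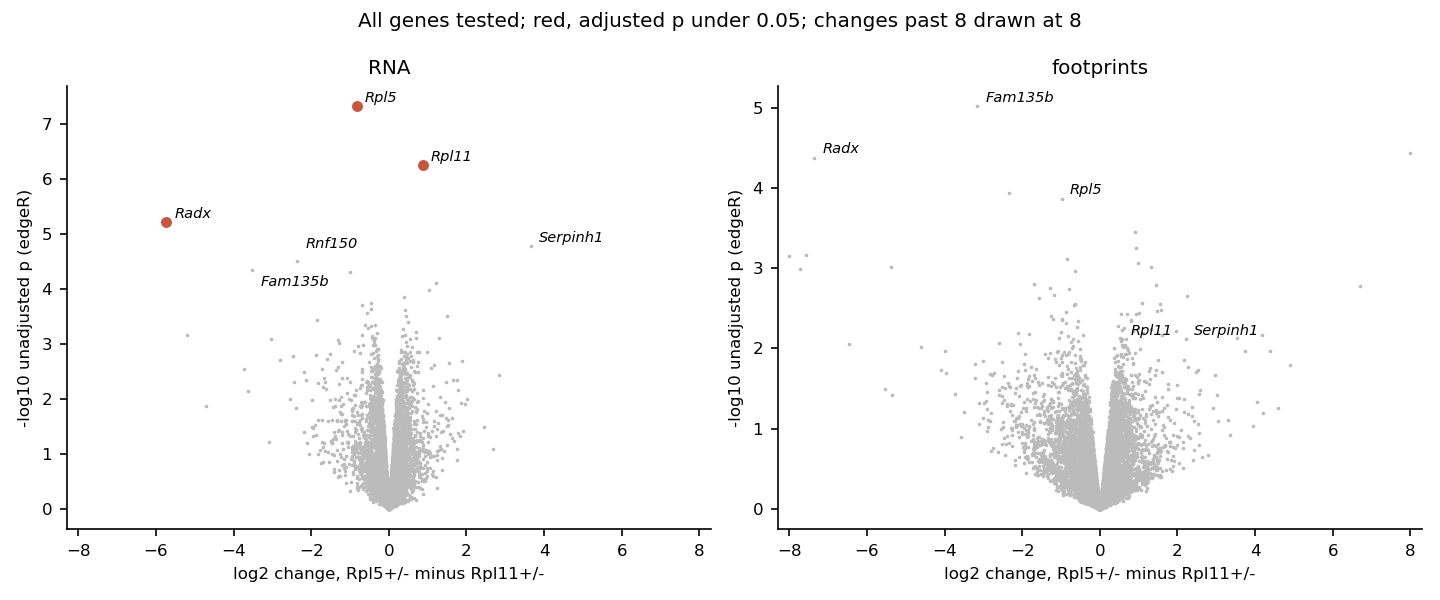
Log2 change of Rpl5+/- over Rpl11+/- against -log10 of the unadjusted edgeR p for every gene tested, in RNA (left) and footprints (right). Red points, at an adjusted p under 0.05, are Rpl5, Rpl11 and Radx in RNA, and there are none in footprints.

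The called gene besides the edited pair was Radx, an X-linked gene whose product binds single-stranded DNA at replication forks. Radx RNA was 0.0456, 0 and 0.204 CPM in Rpl5+/- clones and 4.33, 3.82 and 6.97 CPM in Rpl11+/- clones. The Rpl5+/- values rested on 5 counts in all, against 409 in Rpl11+/-. The fitted log2 change was -5.74 (SE 0.58, edgeR adjusted p = 0.0247). The call was lost without clone 80, 76 or 406, with limma voom, and with all 24 libraries in the fit, while the direction stayed. All 3 Rpl11+/- clones were high, while Rpl5+/- and WT clones were both near 0, since WT read 0, 0.649 and 0 CPM. Footprints showed the same split, with 0.132, 0 and 0 CPM against 9.76, 6.29 and 11.8 CPM (edgeR adjusted p = 0.197).

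Serpinh1 and Rnf150 fell just outside the threshold and passed it without clone 22. Serpinh1, a collagen chaperone, was at 2.1, 3.8 and 3.73 CPM in Rpl5+/- and 0.147, 0.227 and 0.367 CPM in Rpl11+/- (log2 change 3.66, edgeR adjusted p = 0.0502 with all clones and 0.0338 without clone 22). WT clones overlapped both genotypes, at 0.957, 2.71 and 0.244 CPM. Rnf150, a RING-finger gene, was at 1.19, 0.633 and 0.664 CPM in Rpl5+/- and 4.4, 4.88 and 3.74 CPM in Rpl11+/- (log2 change -2.36, adjusted p = 0.0738 and 0.0428). Here the WT clones (0.268, 0.974 and 0.557 CPM) matched the Rpl5+/- range.

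The other genes called only without clone 22 were Itih5, Gm15500, Tnnt1, Ivns1abp, Oip5os1 and Rsrp1. Ivns1abp, which encodes a Kelch-repeat protein that binds actin, had 356, 383 and 365 RNA CPM in Rpl5+/- against 270, 254 and 315 CPM in Rpl11+/-. Its footprints were 172, 187 and 153 CPM against 76.3, 106 and 91.9 CPM, also without overlap (log2 change 0.91, edgeR adjusted p = 0.832). For Tnnt1, clone 22 (2.68 RNA CPM) lay just above the Rpl5+/- clones (1.46, 2.11 and 1.12 CPM). It was far below clones 406 and 414 (12.8 and 9.87 CPM). In Tnnt1 footprints clone 22 (1.4 CPM) fell within the Rpl5+/- values (2.41, 3.73 and 0.755 CPM). For Rsrp1, alone of these 6, clone 22 did not lie on the side of its genotype in RNA. It (138 CPM) lay above all Rpl5+/- clones (119, 119 and 130 CPM), and clones 406 and 414 (83.7 and 86.5 CPM) below them.

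Larger differences without overlap were few. With at least 5 CPM in a group, 15 genes were at least 2-fold lower and 9 at least 2-fold higher in Rpl5+/- RNA by the ratio of means, and these were chosen by their values. Fam135b was at 0.729, 0.633 and 0.153 CPM in Rpl5+/- and 8.11, 4.31 and 5.02 CPM in Rpl11+/- (edgeR adjusted p = 0.0853), and its footprints split likewise (1.3, 0.823 and 0.86 against 10.9, 8.53 and 7.56 CPM). Etv6, a transcriptional repressor that blood stem cells need, was at 162, 181 and 265 CPM against 79.7, 97 and 82.9 CPM (adjusted p = 0.118). Ccl9, a chemokine of myeloid cells, was at 69, 87.7 and 40.3 CPM against 19.2, 22.9 and 27.1 CPM (adjusted p = 0.22). WT clones were at 97.3, 202 and 83.2 CPM for Etv6 and reached 36.7 CPM for Ccl9. The WT clones of Etv6 thus did not keep to either genotype's range.

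Genes of antigen presentation and the interferon response, which load peptides on MHC class I and answer interferon, were mostly lower in Rpl5+/-. None of the 29 members tested was called with all clones. At an unadjusted p under 0.05, 15 of them were lower and 0 higher, against 6.53% lower over all genes. The median log2 change was -0.31 in RNA and -0.38 in footprints, and that of all genes was near 0 (-0.00316 and -0.00826). Without clone 22 the RNA median was -0.24, and 10 members were lower at an unadjusted p under 0.05 (5.86% over all genes, with 6.50% higher). In footprints 3 members were lower at an unadjusted p under 0.05 (1.86% over all genes). Without clone 22 there was 1 (1.47%), and the footprint median was -0.23. Against the WT mean, the list's RNA median was -0.05, -0.08 and 0.06 in Rpl5+/- clones 80, 76 and 68. It was 0.26 in clone 406, -0.02 in clone 414 and 0.41 in clone 22, so clone 414 lay among the Rpl5+/- clones. By single genes, clone 414 fell within their range for 13 of 29 members, near the 41.9% over all genes. The WT clones 3, 2 and 1 were themselves at 0.155, -0.09 and -0.10 in RNA and 0.21, -0.14 and -0.05 in footprints.

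Tap2, a subunit of the peptide transporter, was at 99, 106 and 103 CPM in Rpl5+/- and 156, 132 and 182 CPM in Rpl11+/- (log2 change -0.61, edgeR adjusted p = 0.261). B2m, the MHC class I light chain, was at 442, 436 and 488 CPM against 504, 535 and 693 CPM (adjusted p = 0.335). Nlrc5, the transactivator of MHC class I genes, was at 10.7, 8.86 and 9.91 CPM against 16.8, 11.9 and 24.3 CPM (adjusted p = 0.3). In all 3 genes no Rpl11+/- clone reached down to the Rpl5+/- range, and clone 22 was the highest. The WT clones of Nlrc5 (7.04, 7.03 and 7.34 CPM) lay below both genotypes. Without clone 414, edgeR called Tap2, Nlrc5, Bst2 and Tapbp lower (adjusted p = 0.0143, 0.0323, 0.0337 and 0.0426). That fit, which leaves out the Rpl11+/- clone nearest the Rpl5+/- clones, called 1.73% of all genes lower.

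Several of these genes are neighbours on chromosome 17. Tap1 and Psmb9, a peptide transporter subunit and an immunoproteasome subunit, are transcribed away from each other from starts that RefSeq places 225 bases apart. The bases between those starts (chr17:34187331-34187555, GRCm38.p6, plus strand) are printed because the pair differed together.
Tap1 to Psmb9: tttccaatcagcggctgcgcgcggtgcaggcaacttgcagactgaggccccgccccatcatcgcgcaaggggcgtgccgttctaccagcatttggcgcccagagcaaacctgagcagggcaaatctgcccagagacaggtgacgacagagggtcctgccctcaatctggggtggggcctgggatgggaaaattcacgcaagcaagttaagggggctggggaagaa
Tap1 RNA was 48.2, 49.8 and 51.7 CPM in Rpl5+/- and 59.9, 62.5 and 86.3 CPM in Rpl11+/-. Psmb9 RNA was 56.9, 56.5 and 68.8 CPM against 73.9, 70.2 and 86.4 CPM. Neither gene's clones overlapped, and neither was called (edgeR adjusted p = 0.3 and 0.318).

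An interferon-stimulated response element, searched as a pair of GAAA copies with any 2 bases between them on both strands of the 250 bases before the start, was present in 9 of the 24 list members with a promoter entry. It was present in 3.04% of 27025 promoters. A gamma-activated site, TTCNNNGAA, was in 8 of the 24 and in 7.18% of all promoters. Neither was found between Tap1 and Psmb9. In the immediate early list, the AP-1 site TGANTCA was in 1 of 22 members with a promoter entry, against 6.87% of all promoters. The cyclic AMP response element, TGACG directly followed by TCA, was in 2 of those 22, against 1.62%. These are letter matches only, and 2 members of the interferon list hold them near a start as follows, with the interferon-stimulated response element in capitals (B2m at a match 139 bases before its start, Bst2 with 2 overlapping matches from 130 bases before).
B2m: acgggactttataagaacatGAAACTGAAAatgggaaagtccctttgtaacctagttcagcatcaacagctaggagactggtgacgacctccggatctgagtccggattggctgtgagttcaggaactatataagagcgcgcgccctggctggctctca
Bst2: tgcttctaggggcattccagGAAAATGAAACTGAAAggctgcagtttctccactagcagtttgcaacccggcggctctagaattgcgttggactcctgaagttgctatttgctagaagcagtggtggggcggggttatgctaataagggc
Bst2, a tetherin that holds budding virus at the membrane, was at 60.6, 57.4 and 67.1 CPM in Rpl5+/- and 84.9, 70.6 and 102 CPM in Rpl11+/- (edgeR adjusted p = 0.286). The WT range, 65.9 to 78.9 CPM, overlapped both.

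Immediate early genes, the first transcripts made after a growth signal, were more often lower than higher in Rpl5+/-. None of 30 was called, and 10 were lower and 0 higher at an unadjusted p under 0.05, both with all clones (6.53% lower over all genes) and without clone 22 (5.86%). The list's median log2 change was -0.11 in RNA and -0.34 in footprints, and -0.06 and -0.15 without clone 22. Without clone 414 the RNA median was -0.05. Against the WT mean, the list's RNA median was 0.07, 0.10 and 0.05 in Rpl5+/- clones 80, 76 and 68. It was 0.05 in clone 406, 0.352 in clone 414 and 0.425 in clone 22, so clone 406 lay among the Rpl5+/- clones. By single genes, clone 406 fell within their range for 14 of 30 members, against 32.1% of all genes. In footprints clone 22 was the highest of the 6 clones for 18 of 29 members, against 26.2% of all genes. Jund, an AP-1 subunit, was at 259, 242 and 244 CPM in Rpl5+/- and 306, 301 and 307 CPM in Rpl11+/- (log2 change -0.30, SE 0.0562, edgeR adjusted p = 0.261). Its 3 Rpl11+/- clones were nearly equal and clone 22 did not stand out. Csrnp1, a nuclear protein of the same list, was at 119, 119 and 152 CPM against 170, 184 and 183 CPM (adjusted p = 0.261).

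For both genes the WT clones were lowest, at 192 to 208 CPM for Jund and 93.4 to 102 CPM for Csrnp1. Dusp2, a phosphatase of MAP kinases, kept the same order of WT (8.33 to 10.9 CPM), Rpl5+/- (15.6 to 21.1 CPM) and Rpl11+/- (22.7 to 32.8 CPM). In footprints 7 members were lower without overlap (Jun, Junb, Csrnp1, Ier5, Dusp2, Btg2 and Phlda1) and 1 higher (Spred2), against 4.81% and 4.95% over all genes. Jund overlapped there (8.11, 19 and 11.3 against 10.3, 12 and 19.1 CPM). Without clone 414, Fosl1, Jund, Jun, Fosb and Dusp2 were called lower and Myc higher in Rpl5+/- RNA by edgeR (adjusted p = 0.0285 for Fosl1, 0.0414 for Jund and 0.0456 for Myc). Over all genes 1.73% were called lower and 1.53% higher in that fit.

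The p53 targets varied widely among the Rpl11+/- clones. None of 31 tested was called, while 10 were lower and 2 higher in Rpl5+/- at an unadjusted p under 0.05 (6.53% and 5.87% over all genes). Without clone 22 these counts were 4 and 2 (5.86% and 6.50% over all genes). The median log2 change went from -0.20 to -0.10 without clone 22, and it was -0.35 without clone 414. In that last fit edgeR called 8 lower (Bax, Ccng1, Dglucy, Ak1, Zmat3, Trp53inp1, Aen and Phlda3) and 2 higher (Cd82 and Gadd45a). It called 1.73% lower and 1.53% higher over all genes. Against the WT mean, the list's median level was -0.11, -0.15 and -0.18 log2 in Rpl5+/- clones 80, 76 and 68. It was 0.03 in clone 406, -0.12 in clone 414 and 0.45 in clone 22. Clone 22 was the highest of the 6 clones for 18 of the 31 genes, against 26.3% of all genes.

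Zmat3, an RNA-binding p53 target, was at 29.8, 25.5 and 26 CPM in Rpl5+/- and 50.1, 33.6 and 106 CPM in clones 406, 414 and 22. Ccng1, cyclin G1, was at 187, 145 and 175 CPM against 261, 165 and 418 CPM. Cdkn1a, the cell-cycle inhibitor p21, was at 274, 288 and 298 CPM against 297, 313 and 468 CPM. In each, clone 22 was far above the other 5 clones and clone 414 lay at or near the Rpl5+/- range. WT clones read 44.5 to 53.1 CPM for Zmat3 and 284 to 323 CPM for Cdkn1a, so Zmat3 was below WT in all Rpl5+/- clones and in clone 414. Clone 22 differed from clones 406 and 414 for Zmat3 and Cdkn1a (edgeR adjusted p = 0.0359 and 0.0228) but not past the threshold for Ccng1 (0.086).

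Of the genes that act between the 5S particle and p53, none was called. Mdm2 RNA was 97.1, 88.2 and 86 CPM in Rpl5+/- and 97, 80.3 and 134 CPM in Rpl11+/- (log2 change -0.20, edgeR adjusted p = 0.63). Trp53, which encodes p53, was at 119, 111 and 113 CPM against 136, 116 and 153 CPM (log2 change -0.24, adjusted p = 0.378). Clone 414 lay in the Rpl5+/- range for Trp53, and clone 406 did so for Mdm2, where clone 414 was the lowest of the 6. Without clone 414 Trp53 was called lower (edgeR adjusted p = 0.0476) and Mdm2 was not (0.15). The 10 measured genes of 5S particle assembly held no call other than Rpl5 and Rpl11 themselves. Their median was -0.06, and it was -0.03 without clone 22 and -0.13 without clone 414, where Mdn1, an ATPase that strips factors from the large subunit precursor, was called lower too (adjusted p = 0.0448).

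ATF4 targets, which make and import amino acids under stress, ran the other way. The median log2 change was 0.25 in RNA and 0.32 in footprints, and 29 of 30 members were on the side higher in Rpl5+/- at each level. None was called, and 3 were higher and 0 lower at an unadjusted p under 0.05 in RNA (5.87% and 6.53% over all genes). Without clone 22 the RNA median was 0.10, and without clone 414 it was 0.47, and the footprint medians were 0.17 and 0.51. The level again varied by clone. Relative to WT the list's median was -0.27, -0.11 and -0.16 in Rpl5+/-, and -0.49 in clone 406, -0.04 in clone 414 and -0.93 in clone 22. Clone 22 was the lowest of 6 for 27 of the 30 genes (26.5% of all genes), while clone 414 was the highest for 18 (15.7% of all genes).

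Asns, asparagine synthetase, was at 202, 275 and 247 CPM in Rpl5+/- and 143, 278 and 78.1 CPM in clones 406, 414 and 22 (log2 change 0.54, edgeR adjusted p = 0.562). Slc7a11, the cystine importer, was at 36, 48.2 and 34.8 CPM against 13.7, 34.7 and 12.3 CPM (log2 change 0.97, adjusted p = 0.349). Trib3, a pseudokinase of the stress response, was at 64.5, 85.5 and 86.3 CPM against 30.5, 80.9 and 19.8 CPM (adjusted p = 0.455). Clone 414 lay in the WT range for Slc7a11 and Trib3 and below it (303 to 312 CPM) for Asns. For all 3, clones 406 and 22 lay below every other clone. Without clone 414, edgeR called 10 of the 30 higher in Rpl5+/- and 0 lower (1.53% and 1.73% over all genes). Among the 10 were Slc7a11 (edgeR adjusted p = 0.0143), Cebpg (0.0152), Trib3 (0.0205) and Asns (0.049).

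The element that ATF4 binds with C/EBP partners, searched as TGATGNAA on both strands of the 250 bases before the start, was found in 7 of 26 list members with a promoter entry and in 3.53% of all promoters. Asns (chr6:7693210-7693252, minus strand) and Slc7a11 (chr3:50443614-50443699, minus strand) are shown up to the base before the start in the RefSeq promoter table, on GRCm38.p6, with the matches in capitals. For Slc7a11 that start lies inside the RefSeq gene, whose longest span runs from 50364936 to 50499087.
Asns: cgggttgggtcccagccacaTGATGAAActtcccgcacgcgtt
Slc7a11: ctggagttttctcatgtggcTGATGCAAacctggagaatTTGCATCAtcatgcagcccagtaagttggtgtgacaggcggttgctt

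**Figure D3:**
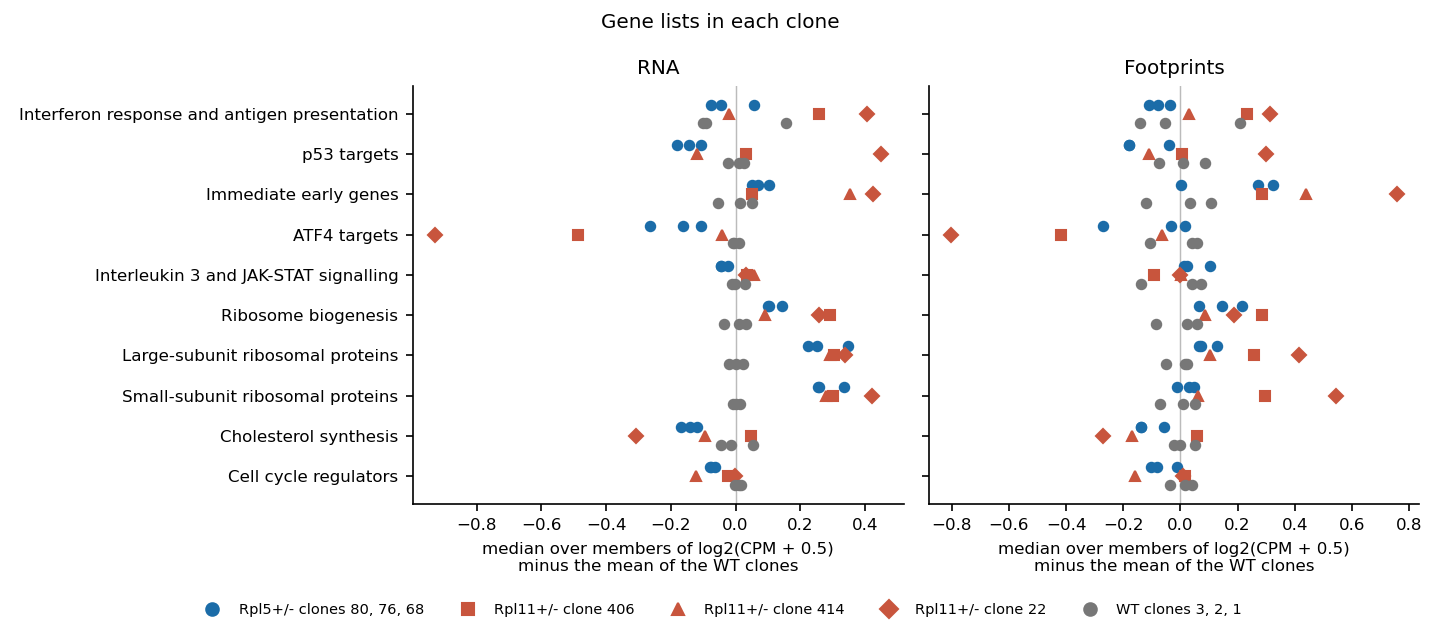
Median over the members of each gene list of log2(CPM + 0.5) minus the mean of the WT clones, for every clone, in RNA (left) and footprints (right). Rpl11+/- clone 22 is farthest from 0 for p53 and ATF4 targets, clone 406 lies between it and the Rpl5+/- clones for ATF4 targets, and clone 414 lies near the Rpl5+/- clones for both.

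**Figure D4:**
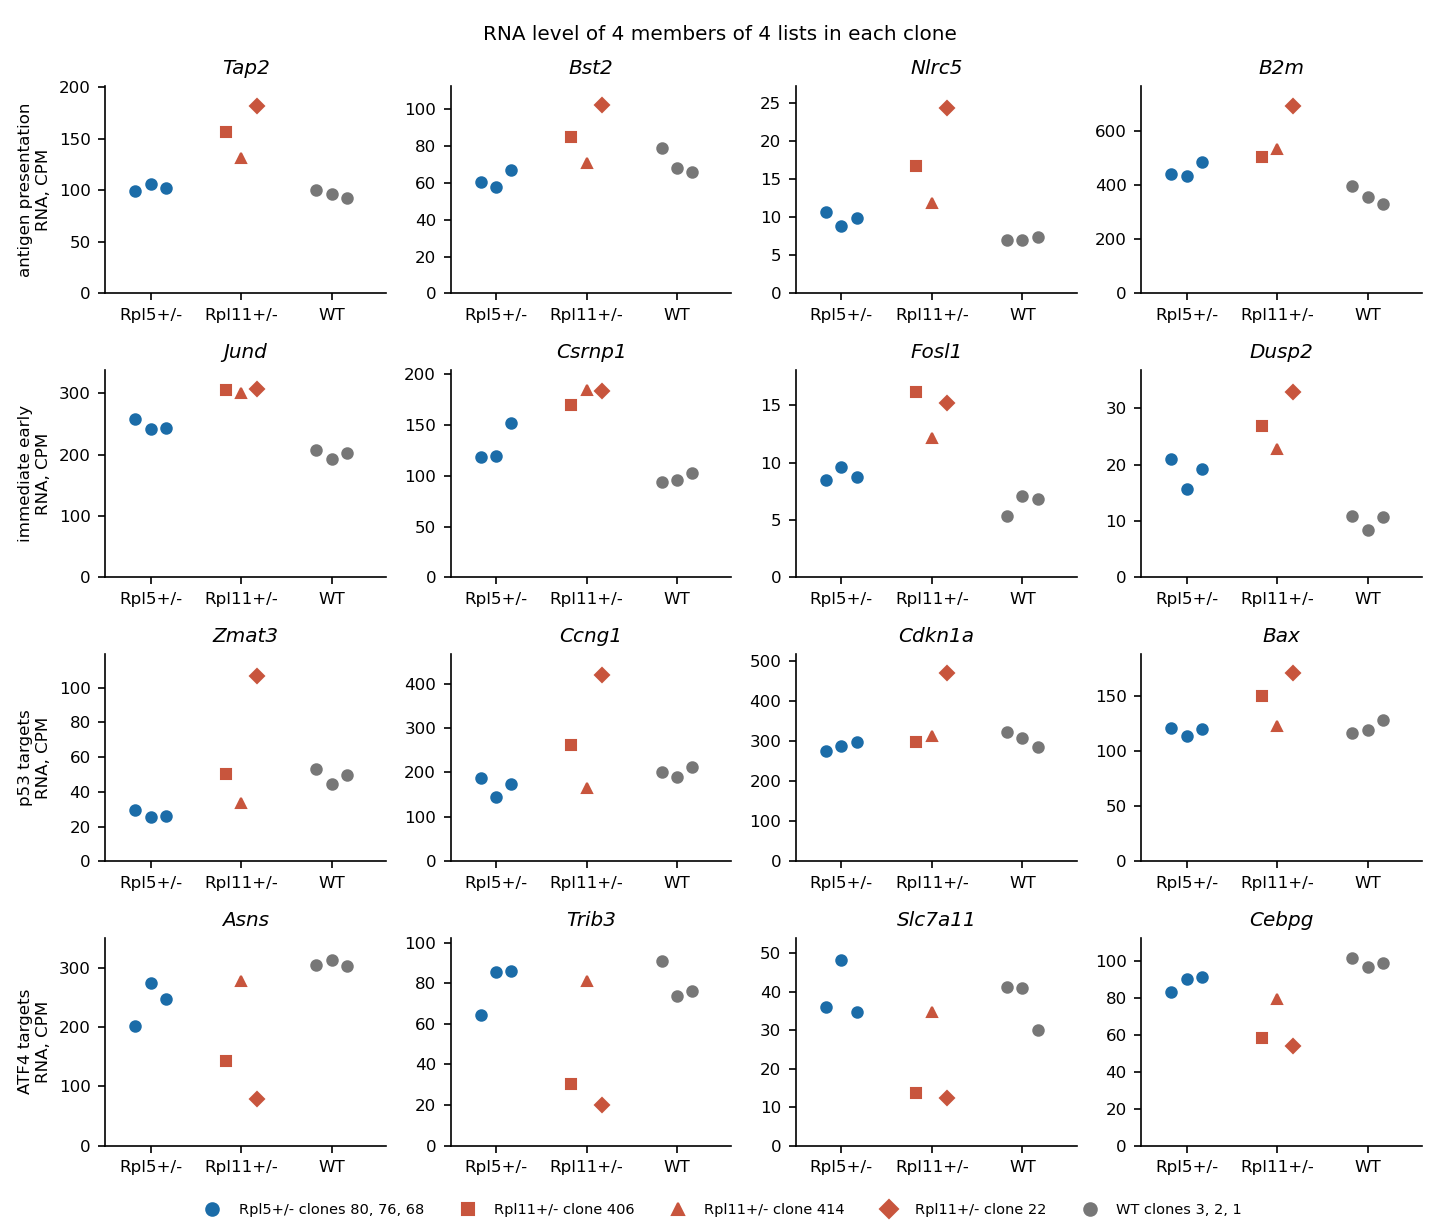
RNA level (CPM, axes from 0) of 4 members of each of 4 lists in every clone. For Jund and Csrnp1 the 3 Rpl11+/- clones stand together above the rest, while for Asns and Trib3 clones 406 and 22 are low and clone 414 is not.

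Signalling genes downstream of the IL-3 receptor gave single differences without a call when all clones were used. Of 34 tested, 3 were higher and 5 lower in Rpl5+/- at an unadjusted p under 0.05 (5.87% and 6.53% over all genes). Without clone 414, edgeR called Socs1, Id1 and Gab2 higher (adjusted p = 0.0143, 0.0258 and 0.0262) and Bcl2 lower (0.0486). The shares over all genes in that fit were 1.53% higher and 1.73% lower. Bcl2, the survival protein, was at 323, 314 and 338 CPM in Rpl5+/- and 496, 438 and 392 CPM in Rpl11+/- (log2 change -0.44, SE 0.0858, edgeR adjusted p = 0.261). The WT clones (452 to 493 CPM) lay with Rpl11+/-. Bcl2 footprints split in the same way, at 108, 115 and 122 against 190, 177 and 142 CPM. Socs1, a feedback inhibitor of JAK kinases, was at 25.7, 35.6 and 34.7 CPM against 12.2, 22.3 and 11 CPM (adjusted p = 0.261), and WT was above both (47.6 to 53.3 CPM).

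Ribosomal protein genes differed little in RNA and more in footprints. The median log2 change was -0.05 over 46 large-subunit genes and -0.06 over 34 small-subunit genes in RNA, and -0.19 and -0.26 in footprints. Without clone 22 the footprint medians were -0.12 and -0.12, and without clone 414 they were -0.24 and -0.40. In footprints 12 large-subunit genes were lower without overlap and 0 higher, against 4.81% lower and 4.95% higher over all genes. Rpl36a footprints were 969, 1022 and 1094 CPM in Rpl5+/- and 1328, 1193 and 1515 CPM in Rpl11+/-. Clone 22 was the highest of 6 clones for 25 of the 34 small-subunit genes in footprints, against 26.2% of all genes. In footprints clone 414 lay within the Rpl5+/- range for 29 of the 34, against 60.6% of all genes. No gene of these lists was called at either level. Rpl22l1, the paralog of Rpl22, had the opposite direction in RNA, at 618, 547 and 636 CPM in Rpl5+/- and 503, 536 and 341 CPM in Rpl11+/- (log2 change 0.38, edgeR adjusted p = 0.366). Its WT clones (599 to 645 CPM) lay with Rpl5+/-, clone 22 was the lowest, and its footprints overlapped.

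Ribosome biogenesis factors had a median log2 change of -0.12 in RNA, with 10 lower and 1 higher of 70 at an unadjusted p under 0.05 (6.53% and 5.87% over all genes). Without clone 22 the median was -0.08, with 7 lower and 0 higher (5.86% and 6.50% over all genes). Rrp12, an export factor of ribosomal precursors, was at 38.4, 30.2 and 35.5 CPM in Rpl5+/- and 51.9, 40.2 and 49.1 CPM in Rpl11+/- (edgeR adjusted p = 0.298). Polr1a, the largest subunit of RNA polymerase I, was at 40.7, 40.8 and 37.4 CPM against 54, 43.2 and 55.5 CPM (adjusted p = 0.314). Clones 406 and 22 were the high clones of both genes. Without clone 414, 14 of the 70 were called lower in Rpl5+/- and 0 higher (1.73% and 1.53% over all genes), and the median was -0.21.

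Lists of cholesterol synthesis (24 tested, median 0.02) and cell cycle regulators (27 tested, median 0.01) lay near the median of all genes. For cholesterol synthesis the Rpl11+/- clones went apart. Against WT, its RNA median was 0.05 in clone 406, -0.10 in clone 414 and -0.31 in clone 22. In Rpl5+/- clones 80, 76 and 68 it was -0.12, -0.14 and -0.17. Without clone 22 the median change was -0.06. There 4 members were lower and 0 higher at an unadjusted p under 0.05 (5.86% and 6.50% over all genes). Among lineage markers, S100a8 and S100a9, the calprotectin genes of myeloid cells, varied widely. S100a9 RNA was 84, 195 and 73 CPM in Rpl5+/-, 27.4, 80.9 and 9.46 CPM in clones 406, 414 and 22, and 6.5, 61.7 and 18.3 CPM in WT. The spread within WT alone was wide, and the part of these markers in the other differences was not tested.

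Clone 22 was next compared with clones 406 and 414 of its own genotype, with 1 library on its side whose spread is taken to be that of the other groups. In RNA 42 genes were called higher (0.353%) and 30 lower (0.252%), and in footprints 3 higher (0.0213%) and 6 lower (0.0426%). Csf2rb and Csf2rb2, the beta subunits of the IL-3 receptor family, were among the RNA calls of lowest p. Csf2rb was at 1075 CPM in clone 22 and 601 and 634 CPM in clones 406 and 414 (log2 difference 0.81, edgeR adjusted p = 0.00604), and 708 to 747 CPM in Rpl5+/-. Csf2rb2 was at 871 CPM against 460 and 467 CPM. These genes are close copies, and reads could be shared between them.

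Other calls of clone 22 in RNA were Ablim1, an actin-binding protein, at 150 CPM against 37.7 and 24.8 CPM, and Creb5, a transcription factor, at 17.7 CPM against 4.11 and 3.86 CPM. St6gal1, a sialyltransferase, went the other way, with 29.6 CPM against 103 and 85.1 CPM, as did Rab37 (24.2 against 52 and 48.7 CPM) and Hmgcs1, an early enzyme of cholesterol synthesis (52 against 95.3 and 96.7 CPM). The remaining genes of lowest p were Gbp7, higher in clone 22, and the copies Gm4759 and Fam220a. In footprints Tgm2, transglutaminase 2, was at 164 CPM against 50.9 and 51.8 CPM, while its RNA was at 103 against 60.5 and 66.3 CPM (edgeR adjusted p = 0.0348 and 0.0689). Kpna2 footprints fell to 0.192 CPM against 55.1 and 80.4 CPM, with its RNA at 226 against 266 and 226 CPM. Gm28035, Col6a3, Fam177a2, Xrra1 and Pfkfb1 were at 0 footprint CPM in clone 22 alone among the 6, and Gm47305 was at 0 in clones 406 and 414 alone. Bcl2a1d, a member of a family of near-identical copies, was at 19 footprint CPM against 3.04 and 3.4 CPM. How reads of similar transcripts were split was not tested, so these genes are uncertain.

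Chromosome 13 was low in clone 22, which was known when clone 22 was set apart. Over 342 genes with a mean of at least 5 CPM, the median log2 difference from the Rpl5+/- clones was -0.32 in RNA, against -0.02 in clones 406 and 414. In footprints it was -0.29 over 377 genes. Against the WT mean the RNA median was -0.31, that is 80.6% of WT. Clone 22 was the lowest of the 6 clones for 74.6% of these genes in RNA, against 28.7% over all chromosomes. In windows of 10 Mb, the RNA median against WT lay between -0.27 and -0.41 in every window. Footprints were less even, from -0.42 to 0.16, with the value above 0 in the window of 20 to 30 Mb (65 genes) and -0.06 at 50 to 60 Mb.

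Of the 30 RNA genes called lower in clone 22, 10 lay on chromosome 13, Hmgcs1 among them, or 2.22% of the genes tested there against 0.252% over all genes. With all clones, the median log2 change of Rpl5+/- over Rpl11+/- on chromosome 13 was 0.10 in RNA, and 0.02 without clone 22. None of the genes called between the genotypes lay there.

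Clone 406 showed a smaller shift on chromosome 4, where Rpl11 lies. Over 585 genes its median log2 difference from the Rpl5+/- clones was 0.12 in RNA, and 0.12 in footprints over 565 genes. Clones 414 and 22 were at 0.00 and 0.02 in RNA. Clone 406 was the highest of 6 for 46.8% of chromosome 4 genes in RNA, against 17.2% over all chromosomes. Genome copy number was not measured.

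**Figure D5:**
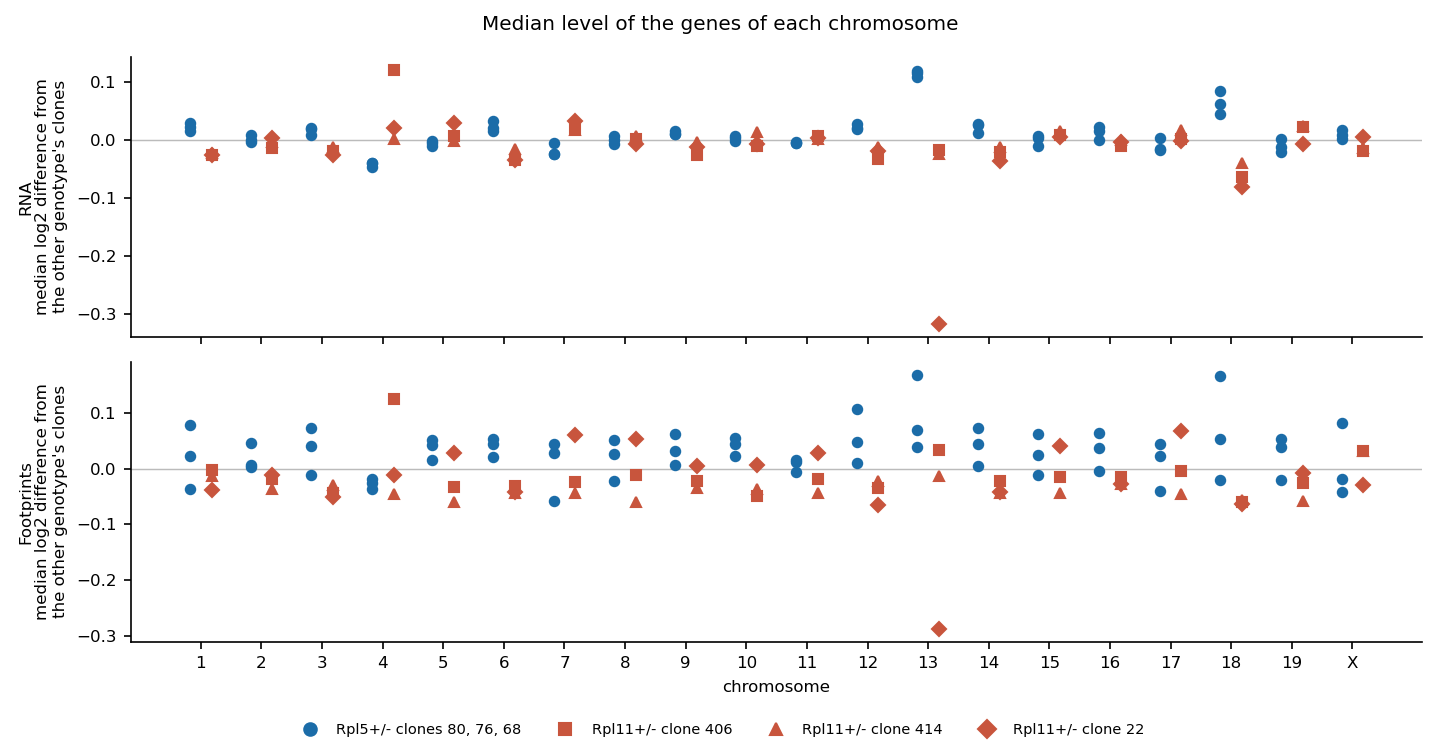
Median over the genes of each chromosome of the log2 difference between a clone and the mean of the other genotype's clones, in RNA (top) and footprints (bottom). Clone 22 is at -0.32 on chromosome 13 and clone 406 at 0.12 on chromosome 4 in RNA, and the shifted clone also moves the Rpl5+/- points there.

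At the level of footprints no gene was called in either direction (0.00% higher and 0.00% lower, with all clones and without clone 22 or clone 414). At an unadjusted p under 0.05 edgeR gave 272 higher (1.93%) and 261 lower (1.86%), and 231 (1.64%) and 207 (1.47%) without clone 22. DESeq2 called 30 genes and limma voom 0. Without the count filter edgeR called 209. The gene of lowest p was Fam135b (log2 change -3.16, edgeR adjusted p = 0.135), followed by 2210418O10Rik and Radx (both 0.197).

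Translational efficiency held no call either (0.00% in each direction), with 280 genes higher (1.93%) and 189 lower (1.30%) at an unadjusted p under 0.05. DESeq2 called 3 genes and limma voom 1. The lowest p on the lower side were those of Ptprn, Gm17094 and Gpld1, each with 0 footprint counts in all Rpl5+/- clones. Ptprn had 21, 16 and 30 footprint counts in Rpl11+/- clones and 6 or fewer RNA counts in every clone, and the other 2 had at most 16 footprint counts in any Rpl11+/- clone. On the higher side were 2210418O10Rik, Scamp5 and Gm4895. 2210418O10Rik had 150, 183 and 135 footprint counts in Rpl5+/- and 0 in every Rpl11+/- clone, with RNA of 24.3, 34.9 and 6.47 CPM against 15.6, 18 and 29 CPM.

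Scamp5, a membrane protein of secretory vesicles, was the sole gene of these 6 with both RNA and footprint counts in every clone. Its RNA was 71.2, 66.3 and 67.6 CPM in Rpl5+/- and 88.2, 84.9 and 132 CPM in Rpl11+/-, and its footprints 2.16, 1.81 and 2.25 CPM against 1.24, 1.64 and 1.31 CPM. RNA was lower and footprints higher in Rpl5+/-, without overlap in either. The efficiency change was 1.15 log2 (95% interval 0.59 to 1.71, edgeR adjusted p = 1).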

How the data were processed

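Poly(A) RNA and ribosome footprints (28 to 30 nt) of Ba/F3 clones were analysed from a table of estimated counts per gene that the authors deposited. STAR 2.6.1d, Salmon 1.4.0, DESeq2 1.30 and build GRCm38 are named in the submitters' processing notes; the annotation release, and the handling of reads that fit several genes, are not given in the sources used here. Counts were rounded, filtered with filterByExpr and scaled by TMM. Each genotype comparison was fitted over 6 libraries per assay with the edgeR 4.0.16 quasi-likelihood test (R 4.3.3, two-sided, Benjamini-Hochberg over all genes, threshold 0.05). For translational efficiency, 1 edgeR model over 12 libraries tested whether the genotype change in footprints differed from that in RNA. It held no clone term, so the efficiency intervals given above come from an unpaired fit. RNA and footprints of the same clone come from 1 lysate, and their deviations from the genotype mean correlated at r = 0.221 to 0.554 over 8530 genes. Different clones correlated negatively. The deviations of 3 clones from their own mean cancel out, so those negative values do not bear on the pairing. The fits were tested on simulated counts. DESeq2 1.42.0, limma 3.58.1, other filters and scalings, and leaving out each clone were the alternatives. Symbols came from the table (32115) or a gene name table (23112), and chromosomes from RefSeq GRCm38.p6 for 39131 of 55487 identifiers. A pseudocount of 0.5 CPM was used for levels per clone. The members and lists were chosen with earlier results of these data known. Genes named by rule are Rpl5, Rpl11, called list members, and genes with an adjusted p under 0.05 with and without clone 22, no overlap and at least 5 CPM. For clone 22 the 10 calls of lowest p are named, and for efficiency the 3 of lowest p per direction. Other named genes were chosen after their values were seen.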

Additional observations from a re-analysis of the deposited data

How the results depend on the processing

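Rpl5 and Rpl11 kept their direction and their call in RNA under each of the 11 alternatives run. The count of RNA calls did not hold: from 3 genes it went to 119 with DESeq2, 26 with no count filter and 20 with all 24 libraries in the fit, and between 2 and 388 when a clone was left out. The highest of these counts came without Rpl11+/- clone 414, with 11 without clone 22 and 6 without Rpl5+/- clone 68, and the cause was not tested. Footprint calls went from 0 to 30 with DESeq2, 209 with no count filter and 1 with all 24 libraries, and Rpl5 footprints were called in these 3 fits (log2 change -0.99, -0.97 and -0.98). Efficiency calls went from 0 to 3 with DESeq2, 1 with limma voom and 17 with no count filter, and were 0 to 1 with a clone left out. With the clone as a replicate block, 0 genes were called for efficiency, and 490 instead of 469 had an unadjusted p under 0.05, so the paired fit changed no call. For clone 22 against clones 406 and 414, RNA calls went from 72 to 494 with DESeq2, 269 with limma voom, 563 with no count filter and 167 with all 24 libraries. Footprint calls went from 9 to 718, 1, 787 and 58 in the same order. The clone 22 contrast rests on 1 library per assay, and footprint precision limits detection, with a median 95% half-width of 0.559 log2.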

Other observations

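Some markers of other blood lineages separated the genotypes in RNA without a call. Itga2b, the integrin chain of platelets and their precursors, was at 231, 213 and 235 CPM in Rpl5+/- RNA and 259, 262 and 309 CPM in Rpl11+/- RNA (log2 change -0.29, edgeR adjusted p = 0.308). WT clones, at 183 to 217 CPM, overlapped Rpl5+/-. In footprints the 1 megakaryocyte marker tested had a log2 change of 0.02, and the clones of the genotypes overlapped. Hba-a1, an alpha globin gene with a near-identical copy, was at 46.7, 33.7 and 30.2 CPM against 67.3, 59.1 and 51.3 CPM (log2 change -0.68, adjusted p = 0.261). Klf1, a master regulator of red cell genes, went the other way, with 25, 22.9 and 24 CPM against 17.1, 20.3 and 17.6 CPM (log2 change 0.39, adjusted p = 0.264). The granule protease gene Gzmb varied widely among clones of the same genotype, at 387, 552 and 882 CPM in Rpl5+/- and 945, 468 and 144 CPM in clones 406, 414 and 22. Clone 22 lay in the WT range of 23.3 to 151 CPM and the other 5 clones above it.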
